A study of Homo sapiens with 18 samples.

Results

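TAZ, the transcriptional coactivator encoded by WWTR1, was knocked down in A549 cells, a human lung adenocarcinoma line. The samples labelled A549_siTAZ and A549_siControl were taken, 3 of each, which are 6 of the 18 RNA-seq libraries of a study that silenced YAP or TAZ in A549 and H1299 cells, both from non-small cell lung cancers. siTAZ cells received a SMARTpool, a mixture of siRNAs against 1 gene, directed at TAZ, and siControl cells received a control siRNA, each at 30 nM for 48 h, and both groups were kept without serum for the last 18 h. For comparison, 3 A549 libraries given a SMARTpool against YAP (siYAP) and 3 siTAZ and 3 siControl libraries of H1299, a lung carcinoma line, were used under the same dose and times. The knockdown was transient, each line stands for 1 genetic background, and the labels do not say whether replicates were separate cultures, so each p-value reflects only how these libraries vary, which may be technical. A549 cells grew in DMEM and H1299 cells in RPMI-1640, so the line and its medium cannot be told apart.

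YAP and TAZ are paralogous coactivators that lack a DNA-binding domain and act mainly through the TEAD family of transcription factors. The Hippo kinases MST1/2 activate the kinases LATS1/2, which phosphorylate both proteins. That phosphorylation keeps YAP and TAZ in the cytoplasm and marks them for degradation. Their best known transcripts are the matricellular genes CYR61 and CTGF, the nuclear ankyrin-repeat gene ANKRD1 and the feedback inhibitor AMOTL2, and many of their other targets act in adhesion, the cytoskeleton and cell division.

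The 6 libraries held 20681049, 23802835 and 24220161 assigned reads in siTAZ replicates 1 to 3 and 15312764, 41009892 and 13104339 in siControl replicates 1 to 3. Libraries that share a replicate number moved together, and replicate 3 stood apart from the other replicates in both groups. On the first principal component of the 6 libraries, which held 53.9% of the variance, siTAZ replicate 3 lay at 36.9 and siControl replicate 3 at 34.9, with siTAZ replicates 1 and 2 at -16.2 and -14.8 and siControl replicates 1 and 2 at -21.3 and -19.4. The second component, with 16.9% of the variance, put the siTAZ libraries at 9.39, 18.2 and 11.8 and the siControl libraries at -20.6, -3.76 and -15.0. siTAZ and siControl were compared within replicate numbers, with the number as a block, in a fit that also held the siYAP libraries. All 12 A549 identity genes on the marker list, among them AKR1B10 and NQO1, had reads in each of the 6 libraries, and EPCAM was low, at 3.97, 3.34 and 0.836 CPM in siTAZ cells and 4.18, 4.18 and 0.913 CPM in siControl cells.

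TAZ mRNA fell to 32.7% of its control level, and YAP1 mRNA did not pass the test. WWTR1 (chr3:149517235-149736714, minus strand, GRCh38) had 70.7, 50.9 and 51.6 CPM in siTAZ cells and 174, 179.8 and 176 CPM in siControl cells (CPM, a read count relative to the library's assigned reads, with library sizes scaled by the TMM method). The groups did not overlap, and siTAZ replicate 1 kept the most WWTR1 RNA. The log2 fold change of siTAZ over siControl was -1.63 ± 0.06 (SE, n = 3 each; edgeR quasi-likelihood test with Benjamini-Hochberg adjustment, adjusted p = 9.32e-22). YAP1 had 58.4, 58.9 and 62.7 CPM in siTAZ cells and 59.6, 56.9 and 58.3 CPM in siControl cells, with overlapping groups and a log2 fold change of 0.04 ± 0.05, adjusted p = 0.703. Antisense genes overlap 9.4% of the exon bases of WWTR1 and 10.0% of those of YAP1, and whether the counting used strand is not given in the sources used here, so reads of such pairs cannot be told apart. The same holds, at 6.9 to 22.1% of exon bases, for CTGF, HABP2, DKK1, VGLL4, SAV1, ARHGEF17, TPM1, KRT7, KRT8, KRT18, CLDN2 and BMF below, and TGFB2 and RRM2 share 26.6% and 20.2% with other genes of their own strand.

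Of 16008 genes tested, 2134 (13.3%) passed an adjusted p below 0.05, 1154 higher (7.21%) and 980 lower (6.12%) in siTAZ cells. Most changes were small: the median size among called genes was 0.26 on the log2 scale for those higher and 0.22 for those lower, and the median over all genes tested was 0.003. At least 1.5-fold changes were called for 192 genes (1.2%), 124 higher (0.775%) and 68 lower (0.425%), and at least 2-fold changes for 54 (0.337%). Within replicate numbers, 1112 of the 1154 higher genes and 949 of the 980 lower genes had the same direction in all 3 pairs (43.3% of all genes tested did), while 389 and 283 of them had groups that did not overlap in CPM (over all genes tested 5.04% lay above and 4.24% below without overlap). Without the replicate block 1 gene, WWTR1, was called. Without siTAZ replicate 2 the count was 1057, 602 higher and 455 lower, and without siControl replicate 2 it was 1441, 788 higher and 653 lower. Without replicate 3 of every group it was 1593, 844 higher and 749 lower. The authors' deposited table, made with DESeq2 per the submitters' processing notes, has 966 genes with an adjusted p below 0.05, 496 higher and 470 lower.

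**Figure D1:**
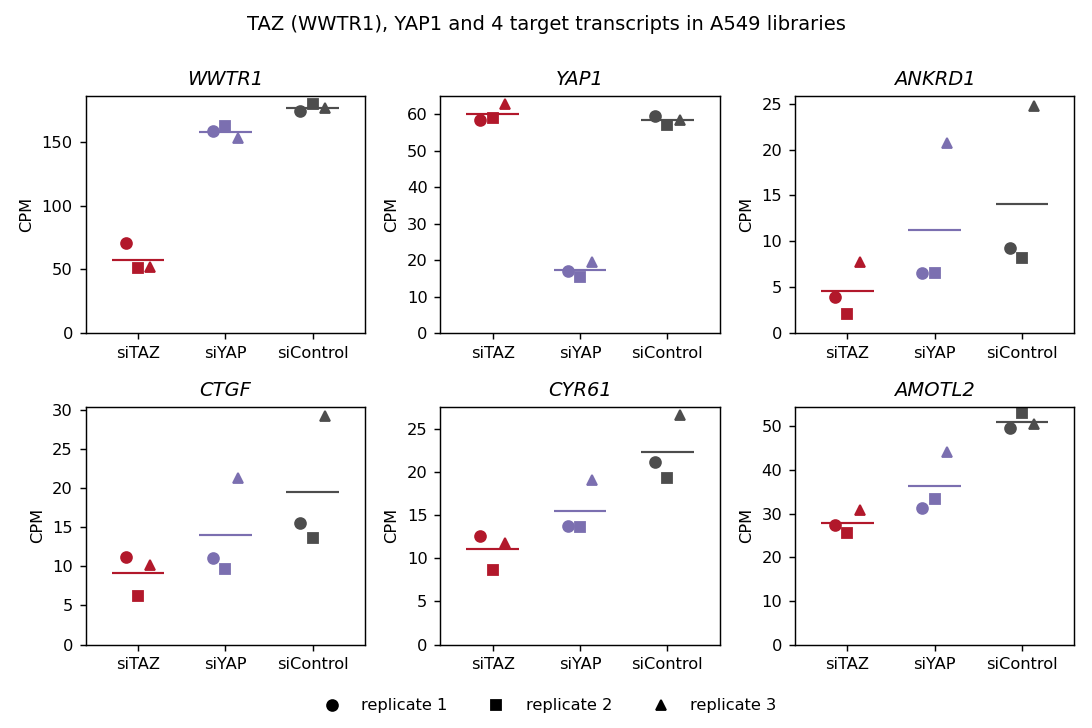
Levels in CPM (vertical axes from 0) of WWTR1, YAP1 and 4 known targets in each A549 library, with siTAZ at the left, siYAP in the middle and siControl at the right; symbols mark the replicate number and lines the group means (n = 3 each). WWTR1 and the 4 targets lie lower in every siTAZ library than in any siControl library, and replicate 3 has the highest ANKRD1, CTGF and CYR61 among the siControl libraries.

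The best known targets of the YAP/TAZ-TEAD pathway were among the genes with the largest losses. ANKRD1, a cardiac ankyrin-repeat transcript used as a TEAD readout, had 3.97, 2.15 and 7.78 CPM in siTAZ cells and 9.29, 8.22 and 24.7 CPM in siControl cells. CTGF (CCN2), a secreted matricellular protein, had 11.2, 6.19 and 10.2 CPM in siTAZ cells and 15.6, 13.6 and 29.3 CPM in siControl cells. CYR61 (CCN1), its close relative, had 12.6, 8.67 and 11.8 CPM in siTAZ cells and 21.2, 19.3 and 26.6 CPM in siControl cells. In all 3 genes the groups did not overlap, and replicate 3 had the highest siControl value. The log2 fold changes were -1.62 ± 0.11, adjusted p = 2.36e-13 for ANKRD1, -1.08 ± 0.11, adjusted p = 3.23e-09 for CTGF and -1.03 ± 0.08, adjusted p = 5.57e-12 for CYR61. CTGF varied most between replicates, with pair differences of -0.47, -1.13 and -1.51 for replicates 1 to 3. AMOTL2, an angiomotin family protein that binds YAP and TAZ and restrains them, had 27.4, 25.6 and 30.8 CPM in siTAZ cells and 49.6, 53.1 and 50.5 CPM in siControl cells, again without overlap, at -0.90 ± 0.06, adjusted p = 8.57e-13.

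Promoter sequence was examined because TEAD factors bind the core GGAATG, read as CATTCC on the other strand. Among the 15 genes with the largest losses, 12 had promoters in the RefSeq table (GRCh38.p14), and 5 of these held the core in the 250 bases before an annotated start. Among the 15 genes with the largest gains, 11 had promoters and 2 held it there (SLCO2B1 and TSPAN8), and over all tested genes with promoters 1511 of 11478 did. The 5 of the largest losses are printed 5′ to 3′ on the gene's strand, with each match in capitals, to show how many matches each holds and where.
ANKRD1 (chr10:90921088-90921337, minus strand): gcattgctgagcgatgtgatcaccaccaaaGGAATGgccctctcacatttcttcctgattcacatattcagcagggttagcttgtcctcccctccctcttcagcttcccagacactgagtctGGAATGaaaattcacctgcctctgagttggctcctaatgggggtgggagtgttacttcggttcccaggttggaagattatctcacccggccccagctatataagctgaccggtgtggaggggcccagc
CTGF (chr6:131951373-131951622, minus strand): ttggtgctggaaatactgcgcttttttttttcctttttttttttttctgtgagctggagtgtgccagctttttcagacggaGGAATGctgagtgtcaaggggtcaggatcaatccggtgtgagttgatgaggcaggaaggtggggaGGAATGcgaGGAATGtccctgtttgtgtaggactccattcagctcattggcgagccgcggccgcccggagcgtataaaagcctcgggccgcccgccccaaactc
AMOTL2 (chr3:134374448-134374697, minus strand): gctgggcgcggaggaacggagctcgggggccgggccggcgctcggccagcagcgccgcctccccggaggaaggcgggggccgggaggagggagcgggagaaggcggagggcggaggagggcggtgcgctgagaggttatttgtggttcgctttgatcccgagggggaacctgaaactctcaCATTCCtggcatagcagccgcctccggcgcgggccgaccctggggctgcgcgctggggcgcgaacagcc
C1orf116 (chr1:207032757-207033006, minus strand): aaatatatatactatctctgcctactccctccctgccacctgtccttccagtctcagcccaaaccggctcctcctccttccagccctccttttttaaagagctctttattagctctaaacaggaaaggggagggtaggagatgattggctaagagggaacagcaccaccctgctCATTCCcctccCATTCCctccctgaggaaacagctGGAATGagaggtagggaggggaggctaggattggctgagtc
AJUBA (chr14:22976843-22977092, minus strand): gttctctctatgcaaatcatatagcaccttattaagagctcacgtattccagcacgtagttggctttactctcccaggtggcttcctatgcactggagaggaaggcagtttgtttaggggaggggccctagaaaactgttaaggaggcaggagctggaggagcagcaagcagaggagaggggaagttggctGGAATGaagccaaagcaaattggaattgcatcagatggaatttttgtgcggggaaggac
ANKRD1 had 2 matches, which begin 220 and 128 bases before the start, and CTGF had 3, at 169, 104 and 95 bases, with the last pair 3 bases apart. C1orf116 also had 3, at 76, 65 and 41 bases, while AMOTL2 had 1 at 69 bases and AJUBA 1 at 59 bases, each at 1 of its 2 starts.

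In the whole RefSeq window, 250 bases before to 50 after the start, the core stood in 14.9% of the 1097 promoters of called lower genes (163 promoters, 95% Wilson interval 12.9 to 17.1%) and in 10.9% of the 1382 promoters of called higher genes (151 promoters, 9.39 to 12.7%), against 11.5% of the 16739 promoters of genes tested (1928 promoters, 11.0 to 12.0%). Among genes lower by at least 1.5-fold it stood in 23.4% of 64 promoters (15 promoters, 14.7 to 35.1%), and among genes higher by at least 1.5-fold in 8.77% of 114 (10 promoters, 4.83 to 15.4%). Only the bases before the start gave 12.9% for called lower genes, 9.77% for called higher genes and 9.93% for all. The AP-1 core TGANTCA, searched on both strands and counted separately from GGAATG, also where the letters overlap, stood in 6.02% of the promoters of called lower genes, 6.87% of those of called higher genes and 5.45% of all. Among genes lower by at least 1.5-fold it stood in 12.5% of 64 promoters (8 promoters, 6.47 to 22.8%), and among genes higher by at least 1.5-fold in 9.65% of 114 (11 promoters, 5.47 to 16.5%). The intervals cover counting error only, genes with several starts were counted once for each start, and base composition was not matched, so the shares are descriptions. Distal enhancers, where much TEAD binding is known to occur, lie outside these windows.

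Of the 22 tested members of a list of widely used YAP/TAZ target genes, 11 were called lower and 2 higher, and the median log2 fold change was -0.22, against 0.003 over all genes tested. Besides the 4 genes above, the lower members were TGFB2, NUAK2, MYOF, CRIM1, DOCK5, AXL and ARHGEF17. TGFB2, a TGF-beta ligand, had 20.2, 17.0 and 51.2 CPM in siTAZ cells and 30.3, 29.6 and 71.2 CPM in siControl cells, where the groups overlapped, each siTAZ library lay below the siControl library of its number and replicate 3 had the highest level in both groups. Its log2 fold change was -0.61 ± 0.06, adjusted p = 8.08e-10. NUAK2, an AMPK-related kinase, changed by -0.49 ± 0.06, adjusted p = 4.27e-07, and the membrane protein MYOF by -0.44 ± 0.04, adjusted p = 4.94e-10. The receptor kinase AXL had a smaller change, -0.24 ± 0.04, adjusted p = 1.50e-04. ARHGEF17 had the smallest called change, -0.18 ± 0.06, and was not called without siTAZ replicate 2 (-0.15, adjusted p = 0.208), siControl replicate 1 (-0.15, adjusted p = 0.139) or siControl replicate 2 (-0.16, adjusted p = 0.135).

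The pair of signature members that rose was IGFBP3, an IGF-binding protein, and NT5E, the ecto-nucleotidase CD73. IGFBP3 had 216, 211 and 188 CPM in siTAZ cells and 152, 154 and 163 CPM in siControl cells, and NT5E had 73.6, 75.4 and 71.3 CPM in siTAZ cells and 57.5, 55.8 and 58.5 CPM in siControl cells. Both had groups that did not overlap, with all siTAZ libraries above all siControl libraries. The log2 fold changes were 0.39 ± 0.05, adjusted p = 9.24e-08 and 0.36 ± 0.05, adjusted p = 1.00e-06, in that order. Without any single A549 library the signature had 10 to 12 members called lower and 2 called higher.

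**Figure D2:**
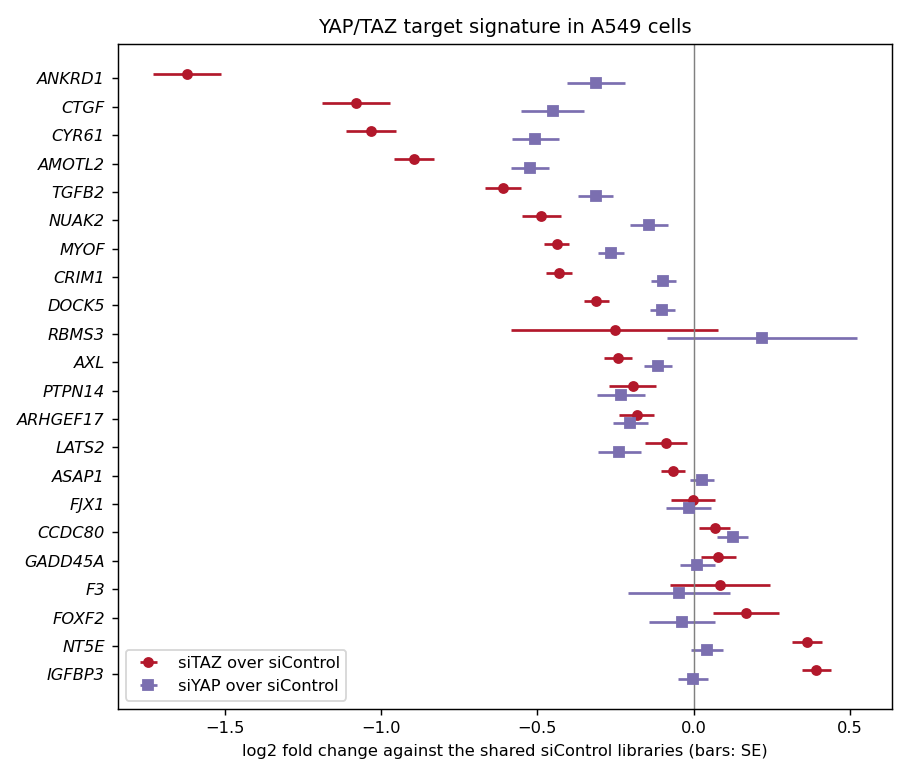
Log2 fold changes (horizontal axis, bars are SE) of the 22 tested members of the YAP/TAZ target signature in A549 cells, for siTAZ (circles) above siYAP (squares), each over the same 3 siControl libraries. ANKRD1 has the largest loss in siTAZ cells, at -1.62 ± 0.11, with -0.31 ± 0.09 in siYAP cells, and IGFBP3 and NT5E lie to the right of 0 for siTAZ.

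Within the pathway itself, the calls of lower level included TAZ, 1 TEAD factor and feedback or scaffold genes, and the core kinases did not pass the test. Of 8 tested TEAD, VGLL and coactivator genes, 2 were called lower, WWTR1 and TEAD1, and 1 higher, VGLL4. TEAD1 had 117, 96.2 and 97.6 CPM in siTAZ cells and 139, 123 and 122 CPM in siControl cells, without overlap, at -0.31 ± 0.04, adjusted p = 1.88e-06. TEAD2, TEAD3 and TEAD4 did not pass, with log2 fold changes of 0.01 ± 0.08, 0.14 ± 0.09 and -0.16 ± 0.07. VGLL4, which competes with YAP and TAZ for TEAD factors, was at 0.23 ± 0.06, adjusted p = 0.0029, but was not called without siTAZ replicate 2 (0.15, adjusted p = 0.183) or siControl replicate 2 (0.14, adjusted p = 0.182). Of 24 Hippo kinases and upstream regulators, 5 were called lower (AMOTL2, AJUBA, WWC1, FRMD6 and SAV1) and 1 higher (MAP4K4). The higher count was 0 with DESeq2 and without siTAZ replicate 2, siTAZ replicate 3, siYAP replicate 2, siControl replicate 1 or siControl replicate 2. AJUBA, a LIM protein that inhibits LATS kinases, had 40.1, 37.3 and 54.3 CPM in siTAZ cells and 70.7, 58.7 and 82.1 CPM in siControl cells, without overlap, at -0.68 ± 0.05, adjusted p = 5.04e-12. WWC1 (KIBRA), an upstream activator of LATS, changed by -0.37 ± 0.05, adjusted p = 6.89e-07. The kinases LATS1, LATS2, STK3 and STK4 did not pass, at 0.05 ± 0.08, -0.09 ± 0.07, -0.08 ± 0.06 and -0.10 ± 0.05.

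**Figure D3:**
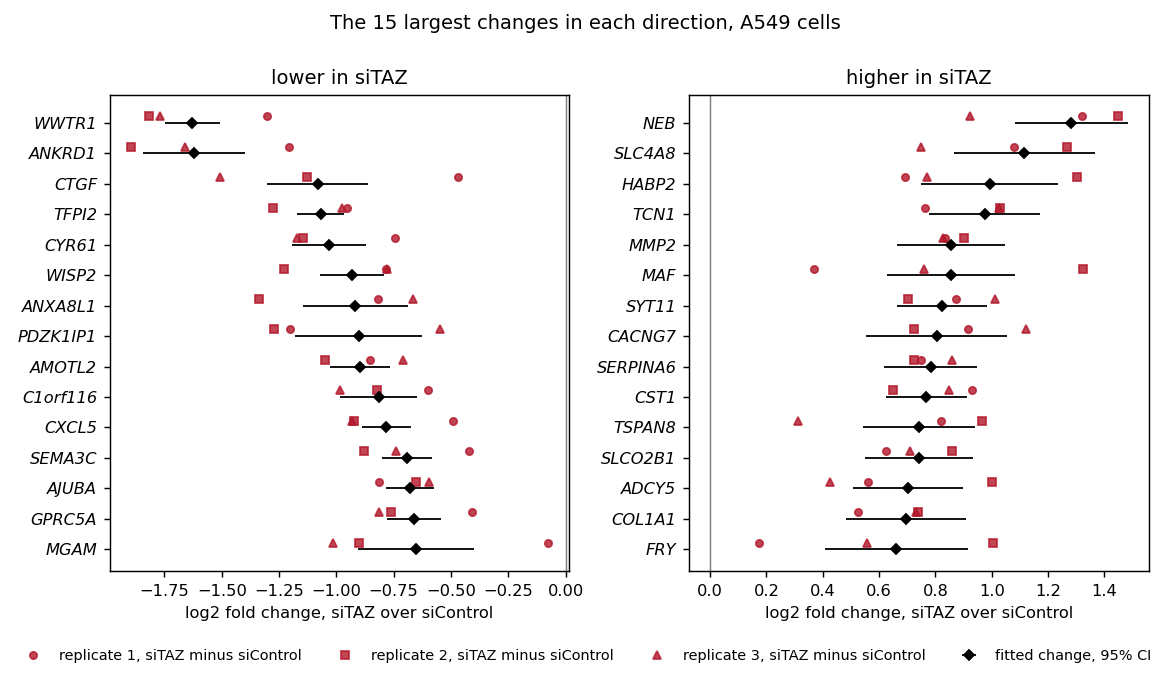
The 15 genes with the largest called losses (left) and gains (right) in siTAZ over siControl A549 cells, as log2 fold changes with 95% confidence intervals (diamonds and bars) and the difference within each replicate number (small symbols). The fitted losses run to -1.63 and the gains to 1.28, and MGAM has 1 pair close to 0.

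The 15 protein-coding genes with the largest losses, among those with at least 5 CPM and the same direction in all pairs, ran between log2 fold changes of -1.63 and -0.65, and 12 of them had groups that did not overlap. Several encode secreted or surface proteins. TFPI2, a secreted inhibitor of serine proteases, had 221, 162 and 255 CPM in siTAZ cells and 428, 391 and 502 CPM in siControl cells, with every siTAZ library below every siControl library, at -1.07 ± 0.05, adjusted p = 3.44e-18. WISP2 (CCN5), a relative of CTGF and CYR61, had 15.3, 11.1 and 32.1 CPM in siTAZ cells and 26.4, 26.2 and 55.1 CPM in siControl cells, and here siTAZ replicate 3 overlapped the siControl range while each pair fell, at -0.93 ± 0.07, adjusted p = 1.92e-12. CXCL5, a neutrophil-attracting chemokine, had 152, 100.4 and 91.6 CPM in siTAZ cells and 214, 190.3 and 175 CPM in siControl cells, without overlap, at -0.78 ± 0.05, adjusted p = 2.19e-13. SEMA3C, a secreted semaphorin, was at -0.69 ± 0.05, adjusted p = 5.67e-12, and GPRC5A, a retinoic acid-induced receptor known as a lung tumour suppressor in mice, at -0.66 ± 0.06, adjusted p = 1.95e-10. C1orf116, whose promoter is printed above, had 11.0, 10.9 and 8.99 CPM in siTAZ cells and 16.8, 19.4 and 17.9 CPM in siControl cells, without overlap, at -0.82 ± 0.08, adjusted p = 3.47e-09. ANXA8L1, an annexin, and PDZK1IP1, a small membrane protein, had low levels and changes of -0.92 ± 0.11 and -0.90 ± 0.14. ANXA8L1 belongs to a family of near-identical copies, so its reads may be split between them. MGAM, an intestinal-type maltase, was at -0.65 ± 0.12, adjusted p = 2.43e-04, with pair differences of -0.08, -0.90 and -1.01, and was not called without siControl replicate 2 (-0.46, adjusted p = 0.0638).

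The 15 largest gains ran between 0.66 and 1.28 on the log2 scale, with siTAZ means between 7.29 and 21.1 CPM and siControl means between 3.46 and 12.1 CPM. NEB, the giant thin-filament protein nebulin, had 13.9, 16.7 and 15.1 CPM in siTAZ cells and 5.51, 6.06 and 7.92 CPM in siControl cells, which is 2.43-fold higher, without overlap, at 1.28 ± 0.10, adjusted p = 5.06e-12. SLC4A8, a sodium-driven chloride/bicarbonate exchanger, had 5.99, 9.94 and 5.94 CPM in siTAZ cells and 2.79, 4.09 and 3.50 CPM in siControl cells, without overlap, at 1.12 ± 0.12, adjusted p = 2.28e-08. TCN1, a vitamin B12-binding protein of secretions, had 9.62, 12.2 and 12.3 CPM in siTAZ cells and 5.64, 5.94 and 6.01 CPM in siControl cells, and its siControl libraries differed little from each other. The change of TCN1 was 0.98 ± 0.10, adjusted p = 2.55e-09. MMP2, a gelatinase, had 9.76, 8.91 and 17.8 CPM in siTAZ cells and 5.44, 4.74 and 9.97 CPM in siControl cells, overlapping, with the largest values of both groups in replicate 3 and nearly the same difference in each pair, 0.83, 0.90 and 0.83. HABP2, a plasma serine protease, and SERPINA6, the corticosteroid-binding globulin, rose by 0.99 ± 0.12 and 0.78 ± 0.08. The tetraspanin TSPAN8 rose by 0.74 ± 0.10, the transcription factor MAF by 0.85 ± 0.11, and the synaptotagmin SYT11 by 0.82 ± 0.08. MAF was mostly a transcript of replicate 3, with 4.56, 5.36 and 30.6 CPM in siTAZ cells and 3.52, 2.09 and 18.0 CPM in siControl cells, and each siTAZ library lay above its siControl partner. The other genes of this group were CACNG7, CST1, SLCO2B1, ADCY5, COL1A1 and FRY. FRY, at 0.66 ± 0.13, adjusted p = 2.35e-04, was not called without siTAZ replicate 2 (0.42, adjusted p = 0.069) or siControl replicate 2 (0.46, adjusted p = 0.0549).

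Most tested genes of DNA replication and of mitosis were called lower in siTAZ cells, by small amounts. Of 41 tested DNA replication genes 29 were called lower and 0 higher, with called changes between -0.57 and -0.17 and a list median of -0.28. RRM2, the small subunit of ribonucleotide reductase, had 33.0, 39.4 and 16.1 CPM in siTAZ cells and 48.2, 54.0 and 22.5 CPM in siControl cells. MCM5, a subunit of the replicative helicase, had 31.0, 31.4 and 14.3 CPM in siTAZ cells and 40.0, 46.8 and 18.1 CPM in siControl cells. In both genes the groups overlapped, both replicate 3 libraries were low, and each siTAZ library lay below its siControl partner. Their log2 fold changes were -0.49 ± 0.05, adjusted p = 1.26e-08 and -0.46 ± 0.06, adjusted p = 4.49e-07, in that order. CDC6, which loads the helicase, changed by -0.51 ± 0.07, adjusted p = 1.25e-06, with pair differences of -0.44, -0.72 and -0.07. Over the list, 30 of 41 members were lower in siTAZ in all 3 pairs, 39 had a fitted change below 0, and none had groups that did not overlap. The lower replicate 3 showed in the list medians, which were 15.7, 17.5 and 11.3 CPM in siTAZ cells and 18.6, 20.1 and 11.8 CPM in siControl cells.

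The mitosis list had 25 of 40 members called lower and 0 higher, with a median of -0.20, and 36 of 40 were lower in siTAZ in all 3 pairs. ANLN, the cytokinesis scaffold anillin, had 73.2, 76.1 and 33.2 CPM in siTAZ cells and 95.2, 108 and 42.4 CPM in siControl cells, lower in siTAZ within each number, at -0.42 ± 0.05, adjusted p = 1.26e-08. CCNB1, cyclin B1, changed by -0.29 ± 0.05, adjusted p = 1.89e-05, and KIF23, a kinesin of the central spindle, by -0.34 ± 0.05, adjusted p = 1.76e-05. Of 19 cyclin, CDK and E2F genes 7 were called lower and 0 higher, among them CDC25A, a phosphatase that activates CDK2, at -0.53 ± 0.13, adjusted p = 0.00288, and CCND3, cyclin D3, at -0.29 ± 0.05, adjusted p = 2.40e-05. Of 24 homologous recombination and Fanconi genes 8 were called lower and 0 higher, led by EXO1, a nuclease of resection, at -0.65 ± 0.10, adjusted p = 2.04e-05. MYC and ribosome biogenesis genes had 9 of 20 members called lower and 0 higher, with called changes between -0.21 and -0.14. These counts moved with single libraries. The DNA replication count was 14 without siControl replicate 2, 16 without siTAZ replicate 2 and 19 without siTAZ replicate 1. It was 18, 8 and 29 without replicate 1, 2 or 3 of every group, in that order. The mitosis count was 16 without siTAZ replicate 2, and the cyclin count 4 without siControl replicate 2. Without replicate 1 of every group the mitosis, cyclin and recombination counts were 15, 2 and 4. Without replicate 2 of every group they were 16, 4 and 2. The recombination count was 3 without siControl replicate 2, 4 without siControl replicate 1 and 5 without siTAZ replicate 2, and the ribosome biogenesis count was 1, 4 and 2 without siTAZ replicate 2, siTAZ replicate 3 and siControl replicate 2. DESeq2 called 16 of the DNA replication list and 19 of the mitosis list.

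The list of CDK inhibitors and damage response genes went partly the other way, with 6 of 24 members called higher and 1 lower. CDKN1C (p57) had 2.21, 1.86 and 2.68 CPM in siTAZ cells and 1.19, 1.30 and 0.990 CPM in siControl cells, without overlap, at 0.81 ± 0.21, adjusted p = 0.00665. SESN2, a stress-induced sestrin, was at 0.32 ± 0.06, adjusted p = 2.89e-04, while PLK2, a polo-like kinase, was the lower member, at -0.42 ± 0.05, adjusted p = 3.29e-08. CDKN1A (p21) did not pass, with 299.9, 349 and 715 CPM in siTAZ cells and 293, 339 and 680.2 CPM in siControl cells, about the same in both groups and highest in replicate 3, at 0.05 ± 0.04, adjusted p = 0.469. The count of higher members was 2 without siTAZ replicate 2, 3 without siControl replicate 2 and 1 without replicate 2 of every group. In the BCL2 family BMF, a BH3-only protein released from the cytoskeleton, had 17.8, 24.1 and 19.6 CPM in siTAZ cells and 16.4, 14.1 and 12.9 CPM in siControl cells, without overlap, at 0.55 ± 0.08, adjusted p = 1.19e-05.

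**Figure D4:**
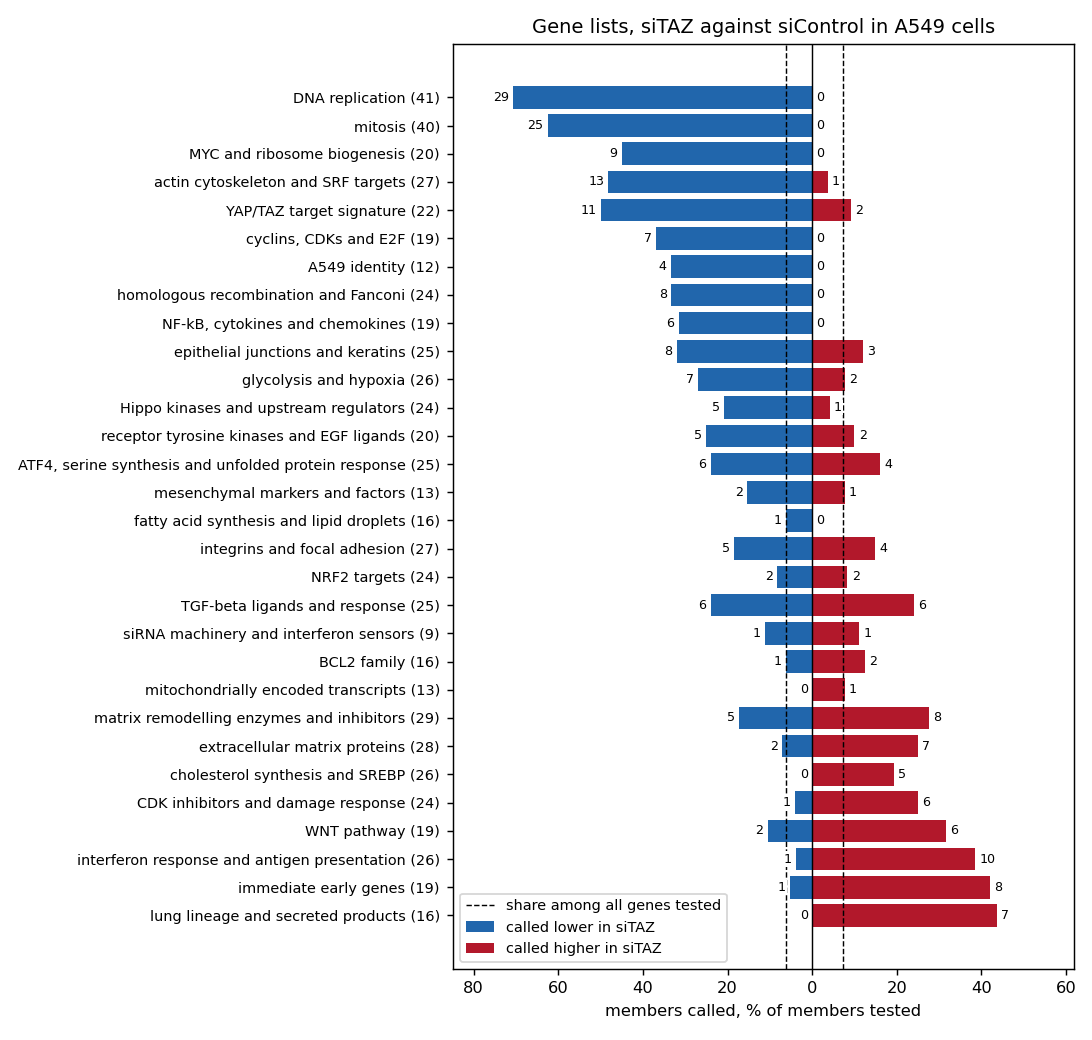
Share of tested members called lower (bars to the left) or higher (bars to the right) in siTAZ against siControl A549 cells, for each list with at least 9 tested members (number tested in brackets, number called beside each bar); dashed lines mark the shares among all genes tested, 6.12% lower and 7.21% higher. DNA replication has 29 of 41 members lower, and lung lineage and secreted products has 7 of 16 higher.

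Among cytoskeletal genes most calls were losses, and among extracellular matrix genes most were gains. Of 27 actin cytoskeleton and SRF target genes 13 were called lower and 1, ACTA2, higher. The higher count was 0 with DESeq2 and without siTAZ replicate 1, siTAZ replicate 2, siYAP replicate 2, siControl replicate 1 or siControl replicate 2, and 2 without siControl replicate 3. TPM1, a tropomyosin, had 111, 105 and 157 CPM in siTAZ cells and 139, 126 and 204 CPM in siControl cells, lower in siTAZ within each number, at -0.32 ± 0.04, adjusted p = 2.48e-07. The filamin FLNA, which crosslinks actin, changed by -0.31 ± 0.04, adjusted p = 2.56e-06. Without siTAZ replicate 2 the lower count of this list was 7. Among 27 integrin and focal adhesion genes 5 were called lower and 4 higher, and without siTAZ replicate 2 or siControl replicate 2 these were 3 and 2. TNS3, a tensin, had 362, 327 and 357 CPM in siTAZ cells and 462, 490.3 and 450.4 CPM in siControl cells, without overlap, at -0.43 ± 0.04, adjusted p = 2.55e-09. CAV1, the main caveolar coat protein, changed by -0.40 ± 0.04, adjusted p = 6.48e-09, and its partner CAV2 by -0.24 ± 0.04, adjusted p = 1.40e-04. ITGA2, the collagen-binding integrin alpha 2, rose, with 138, 137 and 127 CPM in siTAZ cells and 109, 107 and 107 CPM in siControl cells, without overlap, at 0.32 ± 0.04, adjusted p = 3.90e-07.

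Of 28 tested extracellular matrix genes 7 were called higher and 2, CTGF and CYR61, lower. FN1, fibronectin, had 1444, 1062 and 1372 CPM in siTAZ cells and 985, 668 and 984 CPM in siControl cells, with no overlap and a rise in each pair. Its log2 fold change was 0.57 ± 0.04, adjusted p = 1.27e-12. COL1A1, a fibrillar collagen chain also on the fibroblast marker list, had 6.53, 8.05 and 11.2 CPM in siTAZ cells and 4.51, 4.78 and 6.70 CPM in siControl cells, where only siTAZ replicate 1 overlapped the siControl range, at 0.70 ± 0.11, adjusted p = 7.89e-06. The laminin chains LAMA3, LAMB3, LAMC1 and LAMB2 and the fibrillin FBN1 made up the other higher members. Of 29 remodelling enzymes and inhibitors 8 were called higher and 5 lower. PLOD2, a collagen lysyl hydroxylase, was lower, at -0.23 ± 0.04, adjusted p = 6.85e-05. The higher count of the remodelling list was 3 without siTAZ replicate 2, 4 without siTAZ replicate 3 and 5 without siControl replicate 1 or 3. Its lower count was 4 to 6 without any single A549 library. With DESeq2, 4 members were called higher and 5 lower, so gains did not outnumber losses in each setting.

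Of 14 fibroblast and endothelial markers 8 had a value, and their summed level was 10.3, 12.0 and 15.6 CPM in siTAZ cells and 6.53, 8.02 and 10.9 CPM in siControl cells, of which COL1A1 made up 4.44 to 11.0 CPM and COL3A1 at most 0.336 CPM; COL1A2, DCN, PECAM1, VWF, KDR and TEK were not analysed here. Of 10 blood cell markers 5 had a value, with sums of 8.85, 14.3 and 12.6 CPM in siTAZ cells and 7.58, 12.3 and 11.1 CPM in siControl cells. These sums were small in every library, and each was higher in the siTAZ library than in its siControl partner in all 3 pairs. Of the 4 tested members of each list 2 were called higher, COL1A1 and THY1 (0.77 ± 0.23, adjusted p = 0.0223) in the first and LYZ (2.26 ± 0.43, adjusted p = 2.23e-04) and CD79A (0.54 ± 0.18, adjusted p = 0.0451) in the second, and 0 lower. The first count was 1 without siTAZ replicate 1, siControl replicate 1 or siControl replicate 3, and the second was 1 without any single siTAZ library, siControl replicate 1 or siControl replicate 3. With DESeq2 the first was 1 and the second 0, and THY1, LYZ and CD79A were given no adjusted p. LYZ was near the floor, at 0.919, 1.09 and 0.619 CPM in siTAZ cells and 0.131, 0.146 and 0.382 CPM in siControl cells, on the scale of the sums. The part of these markers in the matrix changes was not tested.

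Keratins fell, while 14 of the 25 tested genes of the epithelial list did not pass. On that list 8 were called lower, among them all 6 keratins tested (KRT7, KRT8, KRT18, KRT19, KRT80 and KRT81), and 3 higher, a count that was 1 without siTAZ replicate 2, siTAZ replicate 3, siYAP replicate 2 or siControl replicate 2. KRT7, a simple-epithelium keratin, had 523, 554 and 489 CPM in siTAZ cells and 711, 827 and 782 CPM in siControl cells, without overlap, at -0.56 ± 0.05, adjusted p = 1.21e-10. KRT18 changed by -0.54 ± 0.05, adjusted p = 1.19e-10 and its partner KRT8 by -0.35 ± 0.04, adjusted p = 2.26e-07, with the lowest level of each in siTAZ replicate 3. KRT80 changed by -0.64 ± 0.07, adjusted p = 2.57e-08. The tight junction claudin CLDN2 rose, with 194, 189 and 191 CPM in siTAZ cells and 148, 143 and 142 CPM in siControl cells, a rise of similar size in each pair, at 0.41 ± 0.04, adjusted p = 2.60e-09. CLDN1 was lower, at -0.29 ± 0.05, adjusted p = 1.64e-04, and E-cadherin (CDH1) did not pass, at 0.10 ± 0.05, adjusted p = 0.153. Of 13 mesenchymal genes FN1 was higher and AXL and S100A4 were lower; S100A4 was not called without siTAZ replicate 3 (-0.13, adjusted p = 0.0816) or siControl replicate 3 (-0.10, adjusted p = 0.0927).

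Of 16 tested lung lineage and secreted product genes 7 were called higher, 0 lower and 9 did not pass, with a list median of 0.17. The 7 were the secretory cell genes MUC5AC, MUC5B and AGR2 and the transcription factors SOX2, SOX9, SOX4 and FOXA2. MUC5AC, a gel-forming airway mucin, had 45.0, 51.0 and 18.1 CPM in siTAZ cells and 31.4, 30.5 and 14.2 CPM in siControl cells, where replicate 3 was lowest in both groups and each siTAZ library lay above its siControl partner, at 0.60 ± 0.06, adjusted p = 5.98e-09. MUC5B, the other main airway mucin, changed by 0.40 ± 0.05, adjusted p = 2.63e-07. AGR2, a disulfide isomerase needed for intestinal mucin production in mice, had 316, 257 and 149 CPM in siTAZ cells and 252, 189.7 and 103 CPM in siControl cells, higher within each number, at 0.43 ± 0.04, adjusted p = 1.21e-09. Without any single A549 library 6 or 7 members of the list were called higher, and with DESeq2 5 were.

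Of 19 NF-kB, cytokine and chemokine genes 6 were called lower (CXCL5, CXCL1, CXCL2, CCL2, CXCL8 and NFKB2), 0 higher and 13 did not pass, with NFKB2 not called without siControl replicate 1 (-0.17, adjusted p = 0.0814) or siControl replicate 2 (-0.20, adjusted p = 0.0532). CXCL1, a close relative of CXCL5, had 5.79, 4.58 and 11.8 CPM in siTAZ cells and 8.29, 8.03 and 15.6 CPM in siControl cells, overlapping but lower in siTAZ within each number, at -0.57 ± 0.10, adjusted p = 7.38e-05, and CCL2, a monocyte attractant, changed by -0.43 ± 0.08, adjusted p = 2.56e-04. Without replicate 2 of every A549 group the lower count of this list was 2, and CCL2 was not called (-0.31, adjusted p = 0.0764). Of 26 interferon response and antigen presentation genes 10 were called higher and 1 lower. HLA-C, a class I antigen-presenting chain, was at 0.24 ± 0.04, adjusted p = 1.33e-04. IFI6, an interferon-induced gene, had 12.0, 11.9 and 38.1 CPM in siTAZ cells and 10.7, 10.7 and 20.4 CPM in siControl cells, so that most of the difference lay in replicate 3, and IFIH1, the RNA sensor MDA5, was at 0.53 ± 0.11, adjusted p = 5.34e-04. IFI6 was not called without siTAZ replicate 3 (0.23, adjusted p = 0.137) or siControl replicate 3 (0.26, adjusted p = 0.0709). The count of higher genes on this list was 4 without siTAZ replicate 3, 5 without siControl replicate 3 and 5 without replicate 3 of every group.

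Of 19 immediate early genes 8 were called higher and 1, the phosphatase DUSP1, lower, in cells kept without serum. FOS, a subunit of AP-1, had 12.3, 12.5 and 9.91 CPM in siTAZ cells and 7.16, 7.65 and 7.61 CPM in siControl cells, without overlap, at 0.65 ± 0.09, adjusted p = 3.33e-06, and JUND, a subunit of AP-1 as well, had 168, 183 and 205 CPM in siTAZ cells and 136, 152 and 167 CPM in siControl cells, without overlap, at 0.29 ± 0.04, adjusted p = 1.32e-06. KLF6, a zinc-finger factor, was at 0.24 ± 0.05, adjusted p = 5.02e-04. FOSL1 and JUN did not pass, at 0.09 ± 0.07 and 0.09 ± 0.05. Without siTAZ replicate 2 the higher count was 4, and without siTAZ replicate 1, siControl replicate 1 or siControl replicate 2 it was 5. Without replicate 2 of every A549 group it was 3.

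The TGF-beta list had 6 of 25 members called higher and 6 lower. Over all genes tested 7.21% were called higher and 6.12% lower. Near those shares lie both counts of NRF2 targets below, the higher counts of glycolysis and receptor kinase genes, and the lower count of fatty acid genes. Other small counts lie near them too. Among these are the higher counts of mitochondrially encoded, mesenchymal and target signature genes, and the lower counts of extracellular matrix and immediate early genes. BAMBI, a decoy receptor, rose by 0.49 ± 0.06, adjusted p = 3.53e-08, and ID1, a BMP target, by 0.34 ± 0.05, adjusted p = 2.16e-06, while TGFB2 (above), SMAD7, SMAD6, SMAD3 and SMAD2 were among the lower members. Without siTAZ replicate 2 the counts were 3 and 3, and without siControl replicate 2 the lower count was 3. DKK1, a secreted WNT inhibitor, was the largest loss of the WNT list, with 219, 170.3 and 70.6 CPM in siTAZ cells and 241, 279 and 137 CPM in siControl cells, overlapping groups and pair differences of -0.14, -0.71 and -0.95, at -0.58 ± 0.07, adjusted p = 3.11e-07. The WNT list had 6 of 19 members higher and 2 lower, with 1 to 4 higher without any single A549 library and 1 lower without siTAZ replicate 2 or siControl replicate 2. Glycolysis and hypoxia genes had 7 of 26 members lower and 2 higher, led by PGAM1, a glycolytic mutase, at -0.39 ± 0.04, adjusted p = 4.38e-08, and the glucose transporter SLC2A3 at 0.38 ± 0.06, adjusted p = 2.17e-05, and the higher count was 1 without siTAZ replicate 1, siTAZ replicate 2, siControl replicate 1 or siControl replicate 2. Their lower count was 3 without replicate 2 of every A549 group. Of 24 NRF2 targets, which this line expresses at a high level through its KEAP1 mutation, 2 were higher and 2 lower, with TXNRD1, thioredoxin reductase, at -0.29 ± 0.04, adjusted p = 1.43e-06. Their higher count was 1 with DESeq2, without any single siTAZ library and without siYAP replicate 2, siYAP replicate 3, siControl replicate 1 or siControl replicate 2, and their lower count was 1 without siTAZ replicate 1 or siTAZ replicate 2. ATF4 and unfolded protein response genes had 4 of 25 higher and 6 lower, with XBP1 at 0.26 ± 0.04, adjusted p = 6.58e-05 and PSAT1, a serine synthesis enzyme, at -0.24 ± 0.04, adjusted p = 5.70e-05, and the lower count was 2 without siTAZ replicate 1 or siControl replicate 1. Receptor kinase genes had 2 of 20 higher (1 without siTAZ replicate 3), among them ERBB3 at 0.30 ± 0.06, adjusted p = 2.77e-04, and 5 lower, a count that was 1 without siControl replicate 2 and 2 without siTAZ replicate 2. In the fatty acid list 1 of 16 genes was lower, ELOVL5, and 0 were higher; ELOVL5 was not called without siTAZ replicate 2 (-0.11, adjusted p = 0.208) or siControl replicate 2 (-0.11, adjusted p = 0.117).

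Mitochondrially encoded transcripts took 17.6, 16.4 and 18.2% of the reads in siTAZ cells and 16.7, 15.7 and 16.5% in siControl cells, and 1 of 13, MT-ND6, was called higher, though not without siTAZ replicate 1 (0.14, adjusted p = 0.123), siTAZ replicate 3 (0.12, adjusted p = 0.168) or siControl replicate 3 (0.08, adjusted p = 0.207). All 13 had a fitted change above 0, with a median of 0.10, and 12 were higher in siTAZ in all 3 pairs. Without any single A549 library 0 to 3 were called higher. Of 9 genes of the siRNA machinery and RNA sensing, DROSHA was lower at -0.14 ± 0.04 and TLR3 higher at 0.32 ± 0.11; each lost its call when 1 of several libraries was left out, for example DROSHA without siTAZ replicate 2 (-0.10, adjusted p = 0.317) and TLR3 without siTAZ replicate 2 (0.21, adjusted p = 0.436).

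To ask how losing TAZ differs from losing its paralog, siTAZ cells were compared directly with siYAP cells. Of the 16008 genes 1127 (7.04%) were called, 724 higher (4.52%) and 403 lower (2.52%) in siTAZ cells. Against the same siControl libraries, 909 genes (5.68%) were called in siYAP cells, 401 higher (2.5%) and 508 lower (3.17%). The direct count fell to 436 without siTAZ replicate 2, to 308 without siYAP replicate 2 and to 658 without siYAP replicate 3, and it was 2 without the block. YAP1 had 58.4, 58.9 and 62.7 CPM in siTAZ cells and 17.0, 15.5 and 19.5 CPM in siYAP cells, and WWTR1 had 70.7, 50.9 and 51.6 CPM in siTAZ cells and 158, 162 and 153 CPM in siYAP cells. Each transcript was lowest in its own knockdown, with differences of siTAZ minus siYAP of 1.82 ± 0.06, adjusted p = 1.05e-23 for YAP1 and -1.47 ± 0.06, adjusted p = 2.00e-20 for WWTR1.

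The comparisons share libraries, so values are set side by side and agreement between them is not counted. ANKRD1 had 3.97, 2.15 and 7.78 CPM in siTAZ cells, 6.51, 6.59 and 20.7 CPM in siYAP cells and 9.29, 8.22 and 24.7 CPM in siControl cells. Its siTAZ and siYAP ranges overlapped, with replicate 3 high in both, and the siTAZ minus siYAP difference was -1.31 ± 0.11, adjusted p = 1.91e-10. CTGF differed by -0.63 ± 0.11, adjusted p = 2.59e-04, and CYR61 by -0.53 ± 0.08, adjusted p = 4.66e-05. AMOTL2 differed by -0.37 ± 0.07, adjusted p = 2.17e-04, and each of these fitted levels was lower in siTAZ cells. CTGF had 11.2, 6.19 and 10.2 CPM in siTAZ cells and 11.1, 9.73 and 21.4 CPM in siYAP cells. Its ranges overlapped, and siTAZ was not lower in replicate 1. WISP2 had 15.3, 11.1 and 32.1 CPM in siTAZ cells and 24.0, 22.3 and 56.9 CPM in siYAP cells, a difference of -0.82 ± 0.07, adjusted p = 9.81e-11, and siYAP against siControl was -0.11 ± 0.06, adjusted p = 0.373. TFPI2 and C1orf116 were the other genes with the largest lower values in siTAZ cells, at -0.67 ± 0.05, adjusted p = 6.30e-12 and -0.66 ± 0.08, adjusted p = 6.56e-07.

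Among the genes higher in siTAZ than in siYAP cells, TCN1 had 9.62, 12.2 and 12.3 CPM in siTAZ cells and 4.62, 6.02 and 5.83 CPM in siYAP cells, without overlap, a difference of 1.03 ± 0.10, adjusted p = 1.26e-09, and siYAP against siControl was -0.06 ± 0.11, adjusted p = 0.857. SLC4A8 differed by 0.87 ± 0.12, adjusted p = 3.02e-06 and MMP2 by 0.79 ± 0.09, adjusted p = 1.60e-07. NEB was higher in each siTAZ and each siYAP library than in any siControl library, with 13.9, 16.7 and 15.1 CPM in siTAZ cells, 13.2, 12.2 and 11.1 CPM in siYAP cells and 5.51, 6.06 and 7.92 CPM in siControl cells, and the siTAZ minus siYAP difference was 0.35 ± 0.09, adjusted p = 0.00743. EIF4EBP2, a translation repressor, had 60.3, 73.7 and 79.8 CPM in siTAZ cells, 35.2, 37.4 and 52.0 CPM in siYAP cells and 55.3, 58.0 and 74.6 CPM in siControl cells; it was low in siYAP cells, and siTAZ minus siYAP was 0.80 ± 0.05, adjusted p = 2.23e-13. Its rise in siTAZ against siControl was 0.20 ± 0.05 and lost its call without siTAZ replicate 2 (0.10, adjusted p = 0.372) or siControl replicate 2 (0.16, adjusted p = 0.108).

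The lists differed between knockdowns in different degrees. Over all genes tested, 4.52% were called higher and 2.52% lower in siTAZ than in siYAP cells. The counts of 1 in the DNA replication and mitosis lists lie near or below those shares. In the target signature 9 of 22 members were called lower and 2 higher in siTAZ than in siYAP cells. In the DNA replication list 0 members were lower and 1 was higher, and in the mitosis list 1 was lower and 0 higher; against siControl, 22 of 41 and 30 of 40 members were called lower in siYAP cells, with the siTAZ counts of 29 and 25 given above, from the same siControl libraries. In the extracellular matrix list 9 of 28 members were higher and 2 lower in siTAZ than in siYAP cells, and FN1 differed by 0.39 ± 0.04, adjusted p = 1.58e-08. Of the immediate early genes 7 of 19 were higher and 0 lower, with FOS at 0.64 ± 0.09, adjusted p = 8.26e-06. In the lung lineage list 3 of 16 were higher and 0 lower; MUC5AC differed by 0.05 ± 0.06, adjusted p = 0.711 and AGR2 by 0.04 ± 0.04, adjusted p = 0.700. PLOD2 was lower in siYAP than in siTAZ cells, with 186, 165 and 197 CPM in siTAZ cells and 139, 121 and 157 CPM in siYAP cells, without overlap, a difference of 0.40 ± 0.04, adjusted p = 1.23e-08.

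To see which responses depend on the cell line, the siTAZ effect in A549 was compared with that in H1299 in a joint fit of all 18 libraries. Of 15816 genes 2797 (17.7%) had effects that differed, 1638 higher (10.4%) and 1159 lower (7.33%) in A549. In H1299 cells alone, 5606 of 15775 genes (35.5%) were called, 2631 higher (16.7%) and 2975 lower (18.9%). The count of differing genes was 60 without the blocks, 1376 without H1299 siTAZ replicate 3, 1382 without H1299 siControl replicate 1 and 3889 without H1299 siControl replicate 2, and it lay between 1740 and 1914 without any 1 of the 6 A549 libraries. WWTR1 itself was left at different levels, with 36.1, 82.7 and 29.05 CPM in H1299 siTAZ cells and 265, 276 and 229 CPM in H1299 siControl cells beside the A549 values given above. H1299 siTAZ replicate 2 kept more WWTR1 RNA than the other siTAZ libraries of that line, and the difference between lines, A549 minus H1299, was 0.85 ± 0.22, adjusted p = 0.0121. Unequal knockdown therefore stood beside each comparison of effect size between lines, and its part was not tested.

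Of the genes called higher in A549, 950 were tested in H1299, where 81.3% had the same sign, 47.3% were called in the same direction and 4.84% in the opposite one. Of the genes called lower, 895 were tested there, of which 88.4% had the same sign, 67.9% were called lower and 2.68% higher. Over all 14027 genes tested in both lines, 65.0% had the same sign, 28.8% were called in H1299 in the direction they had in A549 and 8.63% in the opposite one. Among the 22 YAP/TAZ target signature genes tested in A549, as far as they were in the joint fit, the line difference was examined. It (A549 minus H1299) passed the test above 0 for 3 and below 0 for 4. Over all genes of the joint fit, 10.4% passed above 0 and 7.33% below. AMOTL2 was among those below 0, with changes of -0.87 in A549 and -0.44 in H1299 and a difference of -0.43 ± 0.14, adjusted p = 0.0307. For CTGF and CYR61 the difference did not pass. CTGF changed by -1.05 in A549 and -1.32 in H1299 in the joint fit, with a difference of 0.27 ± 0.21, adjusted p = 0.397, and CYR61 by -1.02 and -1.62, with a difference of 0.61 ± 0.25, adjusted p = 0.0988. NEB rose by 1.27 in A549 and 1.23 in H1299, with a difference of 0.04 ± 0.22, adjusted p = 0.923.

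**Figure D5:**
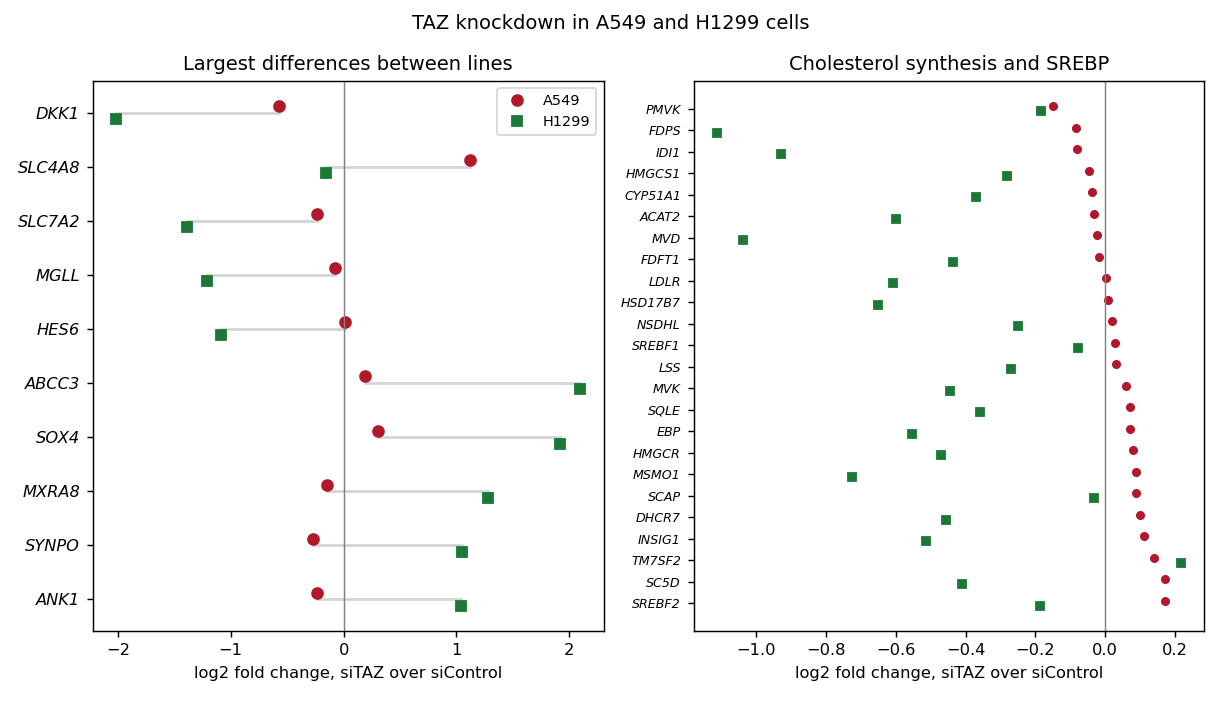
Log2 fold changes of siTAZ over siControl (horizontal axes) in A549 (circles, drawn above) and H1299 (squares), for the 5 genes with the largest difference between lines in each direction (left) and for 24 members of the cholesterol synthesis and SREBP list tested in both lines (right). ABCC3 lies at 0.19 in A549 and 2.10 in H1299, and the H1299 squares of the cholesterol list lie mostly to the left of the A549 circles.

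Of the 10 genes with the largest differences between lines, 8 changed by less than 0.5 on the log2 scale in A549 and by more than 1 in H1299. DKK1, with the largest positive difference, changed by -0.58 in A549 and -2.02 in H1299 on the log2 scale. SLC4A8 rose by 1.12 in A549 and had 80.6, 67.9 and 76.9 CPM in H1299 siTAZ cells and 83.8, 73.4 and 94.2 CPM in H1299 siControl cells, where the groups overlapped. MGLL, monoacylglycerol lipase, had 118, 139 and 170.2 CPM in siTAZ cells and 129.9, 148 and 173 CPM in siControl cells in A549, with a fitted change that did not pass (-0.09 ± 0.04), and 3.21, 3.91 and 5.59 CPM in H1299 siTAZ cells and 11.9, 6.32 and 11.6 CPM in H1299 siControl cells, without overlap. ABCC3, a drug and bile salt exporter, had the largest negative difference, with 646, 623 and 651 CPM in siTAZ cells and 592, 529 and 575 CPM in siControl cells in A549 and 29.3, 16.9 and 35.7 CPM in H1299 siTAZ cells and 4.70, 8.70 and 5.45 CPM in H1299 siControl cells, so that its level was far lower in H1299 and its rise far larger. SOX4, an HMG-box factor, had 87.4, 114 and 86.5 CPM in H1299 siTAZ cells and 17.5, 50.8 and 15.7 CPM in H1299 siControl cells, with H1299 siControl replicate 2 far above the other siControl libraries, beside a change of 0.29 ± 0.04 in A549. SYNPO, an actin-associated protein, fell in A549, at -0.28 ± 0.04, adjusted p = 6.27e-06, and had 9.47, 6.93 and 8.18 CPM in H1299 siTAZ cells and 3.67, 5.06 and 3.20 CPM in H1299 siControl cells, without overlap and in the opposite direction.

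Cholesterol synthesis and SREBP genes had different effects in the lines. In A549 5 of 26 tested members were called higher, among them SC5D, SREBF2 and TM7SF2, and 0 lower, while in H1299 1 of 25 was called higher and 19 lower, and the effect was higher in A549 than in H1299 for 20 members and lower for 0. SC5D, a sterol desaturase, had 166, 135 and 145 CPM in siTAZ cells and 149, 122 and 126 CPM in siControl cells in A549, overlapping but higher in siTAZ within each number, at 0.17 ± 0.04, adjusted p = 0.00257, and the difference between lines was 0.59 ± 0.14, adjusted p = 0.00771. SREBF2, the transcription factor that drives the pathway, was at 0.17 ± 0.04, adjusted p = 0.0029 in A549 and lost its call without siTAZ replicate 2 (0.15, adjusted p = 0.0606). DNA replication genes fell further in H1299, where 41 of 41 were called lower with a median of -0.76, and the effect differed between lines for 28. Of 25 TGF-beta list genes tested in A549, 12 had a lower effect in A549 than in H1299 and 1 a higher one. Of the immediate early genes 11 of 19 had a higher effect in A549 and 1 a lower one, with FOS at 0.88 ± 0.22, adjusted p = 0.00984. Over all genes of the joint fit, 10.4% had a higher and 7.33% a lower effect in A549. The counts of 1 in these lists lie near or below those shares.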

How the data were processed

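RNA-seq read counts of 9 A549 and 9 H1299 libraries, 3 per group, were used. Per the submitters' processing notes, the tools were cutadapt, STAR 2.4.2a (genome build GRCh38) and DESeq2; how reads were counted, and whether by strand, no source used here states. Deposited by the authors were raw counts per gene symbol, a signal made by dividing the counts by 1 size factor per library, batch-adjusted or regularized log2 values, and log2 fold changes with p-values of their comparisons. The counts were the base of all tests here; from the authors' table only its number of calls is printed. Refitting with a replicate block gave the authors' log2 fold changes within 0.001 for 99.99% of 20335 genes.

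Counts were tested with edgeR 4.0.16 in R 4.3.3 (filterByExpr by group, TMM scaling, quasi-likelihood F test, Benjamini-Hochberg adjustment over all genes tested, calls at an adjusted p below 0.05). The fit held all 9 A549 libraries with the replicate number as a block; the test of the difference between lines held all 18 libraries, with a block per number within each line. Libraries that share a number in the labels deviated together, with correlations of deviations from group means of 0.384 to 0.729 over A549 pairs and 0.108 to 0.383 over H1299 pairs, so the numbers were taken as pairs. Libraries of other groups with different numbers had -0.550 to 0.279 in A549 and -0.324 to 0.160 in H1299, where the ranges overlapped. No 2 replicates of an A549 group agreed within sampling noise, and H1299 replicates were not examined for this. The scripts were tested on simulated counts.

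Values per library are TMM-scaled CPM, except the marker sums, which are counts over total counts. Fold changes are siTAZ over the named other group. Pair differences are on the log2 scale with a prior count of 2. Depth was 10692671 to 44983651 assigned reads per A549 library, and with 3 replicates per group the spread between them enters each standard error beside the counting error. Gene names, biotypes and exon overlaps came from GENCODE 29 (97.5% of symbols had 1 identifier), and promoters from RefSeq (11478 of 16008 tested genes had at least 1).

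Named were WWTR1 and YAP1, the 15 protein-coding genes with the largest called change in each direction (mean of at least 5 CPM, same direction in all 3 pairs), the 5 per direction for siTAZ against siYAP and for the difference between lines, the 4 called members with the smallest adjusted p in each list, and each called member of the target and TEAD lists. TEAD2, TEAD3, TEAD4, LATS1, LATS2, STK3, STK4, CDKN1A, CDKN1C, KRT80, CLDN1, CDH1, EPCAM, FOSL1 and JUN were given values after those values were seen, as were further members named beside a count; some members that the rule covers are counted in their lists but are not reported here by name. The samples and gene lists were chosen with earlier results of these data known. Alternatives were no replicate block, the 6 compared libraries alone, RLE scaling, DESeq2 1.42.0, other filters on low counts, and leaving out libraries.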

Additional observations from a re-analysis of the deposited data

Results flagged for a closer look

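For 10 genes the siTAZ effect on the log2 scale differed between A549 and H1299 in the interaction test of the joint edgeR fit, and these were the 5 with the largest difference in each direction. The effect in A549 exceeded that in H1299 by 1.44 ± 0.23, adjusted p = 4.50e-04 for DKK1, by 1.27 ± 0.17, adjusted p = 1.41e-04 for SLC4A8 and by 1.16 ± 0.21, adjusted p = 0.00103 for SLC7A2, an amino acid transporter. It exceeded it by 1.14 ± 0.16, adjusted p = 1.89e-04 for MGLL and by 1.10 ± 0.19, adjusted p = 7.67e-04 for HES6, a HES family factor. The difference was -1.91 ± 0.23, adjusted p = 4.11e-05 for ABCC3, -1.61 ± 0.19, adjusted p = 4.11e-05 for SOX4 and -1.42 ± 0.16, adjusted p = 4.11e-05 for MXRA8, a cell adhesion protein. It was -1.32 ± 0.18, adjusted p = 1.56e-04 for SYNPO and -1.28 ± 0.21, adjusted p = 5.73e-04 for ANK1, the ankyrin of the red cell membrane skeleton.

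In the joint fit HES6 changed by 0.01 in A549 and -1.09 in H1299, SLC7A2 by -0.23 and -1.39, MXRA8 by -0.14 and 1.28, and ANK1 by -0.24 and 1.04. The medium differs between the lines, and H1299 siTAZ replicate 2 and siControl replicate 2 lay closer to each other than the other H1299 pairs for WWTR1 and SOX4. Whether either plays a part in these differences was not tested.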

How the results depend on the processing

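Without the replicate block, 1 gene (0 higher, 1 lower) was called for siTAZ against siControl, 2 (1 and 1) for siTAZ against siYAP and 60 (26 and 34) for the difference between lines. Among 141 named genes, 136 lost the siTAZ call without the block, 13 with DESeq2, 25 without siTAZ replicate 2 and 23 without siControl replicate 2. No named gene that was called in the main fit or in an altered setting had opposite directions in these. Changes of sign among genes called in neither were not counted. DESeq2 called 1160 genes (583 higher, 577 lower) for siTAZ against siControl and 518 (380 and 138) for siTAZ against siYAP. Leaving out 1 library at a time gave 1057 to 2142 calls for siTAZ against siControl (602 to 1085 higher, 455 to 1057 lower), 308 to 1276 for siTAZ against siYAP (215 to 822 and 93 to 454) and 1376 to 3889 for the difference between lines (702 to 2038 and 576 to 1851). Without replicate 1, 2 or 3 of every A549 group the first count was 1234 (646 and 588), 940 (537 and 403) or 1593 (844 and 749), and the second was 639 (430 and 209), 289 (203 and 86) or 703 (443 and 260). The WWTR1 change lay between -1.80 and -1.53 in all settings tried. The cause of the moves was not tested.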
